A study of Mus musculus with 22 samples.

Results

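The genes described here encode the proteins of the mitochondrial ribosome. They were chosen by symbol alone, as every gene whose symbol starts with Mrpl or Mrps followed by a digit, with symbols that end in a pseudogene suffix (-ps) left out. Of the 55335 genes in the table, 83 matched the pattern, 5 of them were pseudogenes by suffix, and 78 remained. Mitochondrial ribosomes translate the few mRNAs of the mitochondrial genome, all of which encode subunits of the respiratory chain and of the ATP synthase. Their rRNA is transcribed inside the organelle, while every ribosomal protein is encoded in the nucleus, made in the cytoplasm and imported. Cleavage-stage mouse embryos inherit their mitochondria from the oocyte, and respiration rises as the blastocyst forms.

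Of the 78 genes, 51 encode proteins of the large subunit and 26 proteins of the small subunit. Mrps18a and Mrps30 are counted with the large subunit, where their proteins sit despite the symbols. Proteins listed with a counterpart in the same subunit of bacterial ribosomes made up 47 of these 77, and the other 30 are called mitochondria-specific here. Mrps18a is among the 30, since it sits in the large subunit, although its sequence is related to a bacterial small-subunit protein. The remaining gene, Mrps36, carries the symbol of a small-subunit protein, but its product is now known as a subunit of the 2-oxoglutarate dehydrogenase complex of the citric acid cycle.

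Poly(A) RNA of B6D2F1 mouse embryos was sequenced after full-length cDNA amplification with Smart-seq2, in 22 libraries of 15 pooled embryos each. The question was how gene expression changes when the histone variant H2A.Z is depleted: knockdown (KD) zygotes had received about 10 pl of siRNA at 20 µM, a mix of 3 siRNA pairs against the H2A.Z mRNA. Embryos were taken 44 h (2-cell), 78 h (morula) and 94 h (blastocyst) after hCG, and each stage had 4 control libraries beside 3 (2-cell), 3 (morula) or 4 (blastocyst) libraries of KD embryos. The treatment of the control embryos is not stated for RNA-seq, and the noninjected controls described for qPCR may not apply, so an effect of injection cannot be told apart from the KD. Levels are the deposited FPKM (fragments scaled by transcript length and by mapped fragments), which carry no read counts, so the depth of each library is unknown.

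H2afz, which encodes H2A.Z.1, stood at 1244, 1236, 905 and 1178 FPKM in the control 2-cell libraries and at 415, 139 and 112 FPKM in the KD 2-cell libraries. KD replicate 1 kept the highest level, and all KD libraries lay below the controls (exact two-sided permutation test on FPKM, p = 0.0286, the smallest that the 35 splits allow). The log2 fold change was −2.53 with an adjusted p of 0.544 in limma, and −3.12, with an adjusted p under 0.05, without KD replicate 1. Control morulae held 1158, 1336, 1511 and 1421 FPKM of H2afz against 30.3, 25.7 and 29.0 in KD morulae, a log2 fold change of −5.41 (adjusted p 9.72e-08). Control blastocysts held 2656, 2431, 1945 and 2055 FPKM against 64.2, 67.2, 53.2 and 57.6 in KD blastocysts, a log2 fold change of −5.19 (adjusted p 3.63e-08). H2afv, the gene of the paralogue H2A.Z.2, was also lower in every KD morula (12.9, 11.0 and 9.90 FPKM against 97.3, 113, 100 and 92.5) and in every KD blastocyst (19.9, 16.9, 10.6 and 13.9 FPKM against 49.9, 62.0, 54.5 and 63.5). Its log2 fold changes were −2.94 in morulae (adjusted p 2.92e-06) and −1.86 in blastocysts (adjusted p 7.98e-05). In 2-cell embryos it was at 111, 118, 96.8 and 113 FPKM in controls and 97.6, 85.4 and 83.7 FPKM in KD (exact two-sided p = 0.0857).

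Markers of the 2-cell program, of the oocyte and of the trophectoderm fitted the labelled stages in control embryos. The summed mean FPKM of 5 genes of the 2-cell transcriptional program, of which Tcstv3 was the most abundant, was 420 in control 2-cell embryos, 10.6 in control morulae and 1.57 in control blastocysts. The summed mean of 6 oocyte genes was 871, 7.17 and 2.00 FPKM in the same order. The summed mean of 7 trophectoderm genes was 13.3, 130 and 2235 FPKM, and the summed mean of 5 inner cell mass genes was 27.0, 221 and 229 FPKM. Markers of cumulus cells (6 genes) summed to at most 2.13 FPKM, and markers of fibroblasts and blood cells (4 genes) to at most 0.0292 FPKM, in any group. The 4 primitive endoderm genes had mean sums of 5.10, 14.4 and 13.0 FPKM in control 2-cell embryos, morulae and blastocysts. The morula mean rested on replicate 1, at 28.0 FPKM beside 9.90, 10.5 and 9.01 FPKM in the other control morulae. The medians of the libraries were 4.18, 10.2 and 10.7 FPKM. Control morulae (9.01 to 28.0 FPKM) and control blastocysts (10.2 to 20.3 FPKM) overlapped, so this sum did not tell these stages apart. Most of it came from 1 gene, Gata4 in 2-cell embryos (mean 4.85 FPKM) and Gata6 in morulae and blastocysts (14.2 and 10.6 FPKM).

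The mRNA of the mitochondrial ribosome was scarce in 2-cell embryos and abundant in morulae. Summed over the 78 genes, it came to 1523, 1597, 1623 and 1788 FPKM in the control 2-cell libraries. Control morulae summed to 5680, 6576, 6475 and 6379 FPKM, and control blastocysts to 7656, 7591, 7127 and 7538 FPKM. In these sums no control morula overlapped a control 2-cell library, and no control blastocyst overlapped a control morula. As a share of all FPKM in a library, the genes held 0.366% (SD 0.0397, n = 4) in control 2-cell embryos, 1.07% (SD 0.0491, n = 4) in control morulae and 1.11% (SD 0.0383, n = 4) in control blastocysts. By this share control blastocysts (lowest 1.06%) overlapped control morulae (highest 1.10%). In bulk libraries such as these, fewer cells of a type and less RNA per cell cannot be told apart.

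**Figure D1:**
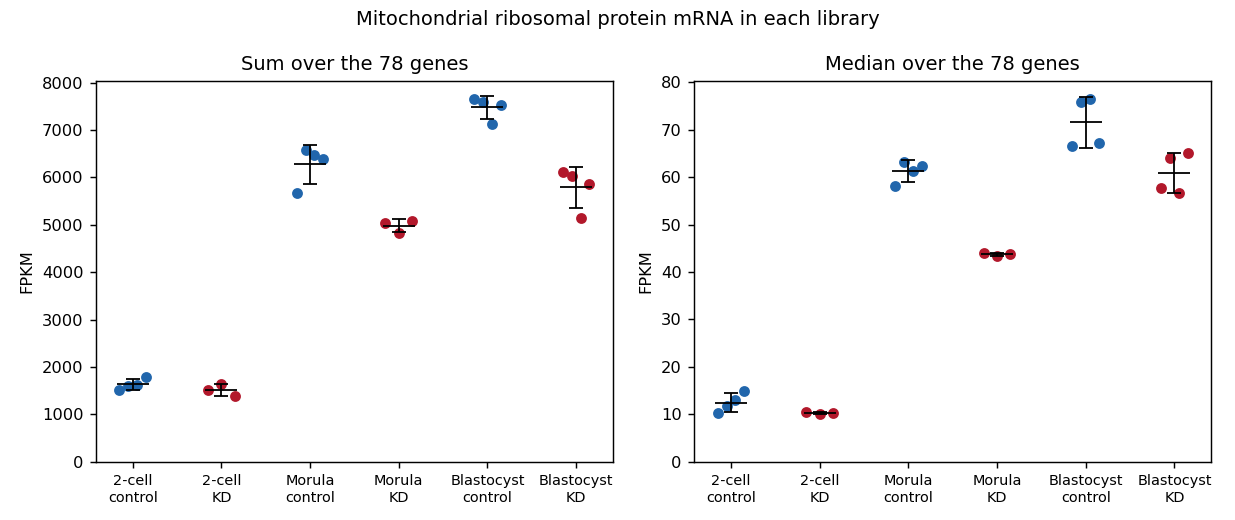
Summed FPKM (left) and median FPKM (right) of the 78 mitochondrial ribosomal protein genes in each library, blue for control and red for KD, with the mean and SD of each group. KD morulae and KD blastocysts lie below their controls in both panels, and 2-cell groups overlap in the sum.

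Between the control 2-cell and morula stages, 69 of the 78 genes were higher, where 40.6% of all 14686 tested genes were, and 0 were lower, where 40.4% of all genes were (30.4% with a log2 fold change below −1). A gene counts as higher or lower here when its adjusted p in limma is under 0.05, and fold changes are on the log2(FPKM + 1) scale. The median log2 fold change of the genes was 1.95, beside 0.03 over all tested genes, and 59 passed a log2 fold change of 1 (27.9% of all genes). In the same fit, 69 of the 78 had an unadjusted p under 0.05, as did 12015 of all 14686 genes, a similar share. Genes with a bacterial counterpart had a median of 2.37 (43 of 47 higher) and mitochondria-specific genes 1.50 (25 of 30 higher). Leaving out 2-cell control replicate 4, or morula control replicate 1 or 2, gave 1 lower gene in place of 0.

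Some of these mRNAs went from near absence to high levels. Mrps31, a mitochondria-specific protein of the small-subunit head, stood at 0.0895, 0.329, 0.750 and 0.721 FPKM in control 2-cell libraries and at 68.3, 66.7, 70.7 and 77.6 FPKM in control morulae. That gain, 5.56 on the log2 scale (SE 0.18, adjusted p 1.06e-12), was the largest of the 78. Mrpl36, among the smallest proteins of the large subunit, measured 3.10, 3.66, 3.41 and 3.42 FPKM in 2-cell embryos, 114, 134, 135 and 120 FPKM in morulae and 374, 337, 319 and 362 FPKM in blastocysts. It gained 4.70 (SE 0.15, adjusted p 1.19e-12) up to the morula and 1.45 (SE 0.15, adjusted p 2.75e-06) from there to the blastocyst, and no libraries of its control groups overlapped. Mrps18a gained 4.64 (adjusted p 1.23e-11) and Mrpl11 3.94 (adjusted p 8.20e-11) between 2-cell embryos and morulae.

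Other genes were already expressed in 2-cell embryos. Mrps6, whose protein lies on the small-subunit platform, held 72.1, 52.2, 65.9 and 59.5 FPKM in control 2-cell libraries and 89.8, 76.4, 60.1 and 57.7 FPKM in control morulae. These groups overlapped, with a log2 fold change of 0.00 (SE 0.16, adjusted p 0.992). Mrps11 (24.5, 21.4, 25.1 and 25.2 FPKM, then 31.1, 29.9, 27.9 and 31.4 FPKM) and Mrps30 (31.8, 30.6, 31.8 and 26.5 FPKM, then 40.8, 38.4, 25.0 and 28.5 FPKM) were likewise not called between these stages (adjusted p 0.318 and 0.756). In FPKM every morula library of Mrps11 was above every 2-cell library, while the groups of Mrps30 overlapped.

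From control morulae to control blastocysts, 29 genes were higher, where 24.4% of all tested genes were, and 7 were lower, where 21.7% of all genes were. Past a log2 fold change of 1, 6 of the 78 were higher (11.6% of all genes) and 1 was lower (9.26% of all genes). The median log2 fold change was 0.29, beside −0.00 over all genes. The count of lower genes was 4 without morula control replicate 2 or without blastocyst control replicate 6. The largest gain was that of Mrps36, from 11.5, 9.85, 15.8 and 15.3 FPKM to 94.1, 63.3, 56.1 and 60.1 FPKM, with every blastocyst library above every morula library. It came to 2.28 on the log2 scale (SE 0.24, adjusted p 2.74e-06). The small-subunit genes Mrps16 and Mrps35 gained 1.25 (adjusted p 0.000214) and 1.23 (adjusted p 1.33e-05). Against that direction, Mrps30 went from 40.8, 38.4, 25.0 and 28.5 FPKM to 11.5, 18.0, 18.8 and 14.5 FPKM, without overlap, a log2 fold change of −1.04 (SE 0.17, adjusted p 0.000121). Mrps26 fell by 0.89 (adjusted p 0.00996) and Mrpl22, which lines the exit tunnel, by 0.78 (adjusted p 0.00168) in the same comparison. Mrpl15 fell by 0.68 (adjusted p 0.0328), a call lost without morula control replicate 2 or 8 or blastocyst control replicate 4 or 6.

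Averaged over the 22 libraries, Mrpl22, Mrps18b and Mrpl18 had the highest levels, and Mrps5, Mrps35 and Mrps25 the lowest. This order mixes stages and did not hold within each: Mrpl40 had the highest mean in control 2-cell embryos (127 FPKM), and Mrps26 the lowest in control blastocysts (6.11 FPKM). Mrps5, a protein at the mRNA entry site, did not exceed 0.223 FPKM in any 2-cell library and lay between 1.98 and 10.1 FPKM in morulae and blastocysts. Mrps18b, by contrast, lay between 42.0 and 59.1 FPKM in 2-cell embryos and between 360 and 510 FPKM in later stages. All 78 genes were listed above 0 in every library, and all had at least 1 FPKM in every morula and blastocyst library.

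In 2-cell embryos, 73 of the 78 genes passed the filter of at least 1 FPKM in at least 3 libraries. Of these, 0 were called lower or higher in KD, as were 0% of all 12160 tested genes. H2afz itself was not called in this limma fit (adjusted p 0.544), although every KD library lay below every control. The lack of calls thus does not show that these genes were unchanged. At an unadjusted p under 0.05 there were 5 of the 73, where 5.76% of all genes (701) had such a p. Their median log2 fold change was −0.10, beside 0.00 over all genes. The smallest p-values belonged to Mrps10 and Mrps30. Mrps10, of the small-subunit head, stood at 6.27, 10.1, 5.60 and 4.64 FPKM in controls and at 1.46, 4.02 and 3.69 FPKM in KD. Mrps30 stood at 31.8, 30.6, 31.8 and 26.5 FPKM in controls and at 22.4, 22.3 and 18.5 FPKM in KD. Every KD library lay below every control for both genes, with log2 fold changes of −0.89 (SE 0.31) and −0.43 (SE 0.15) and adjusted p-values of 0.828.

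In morulae all 78 genes were tested. In KD, 16 were lower, where 9.05% of all 10989 tested genes were, and 0 were higher, where 4.22% of all genes were. At an unadjusted p under 0.05 there were 38 of the 78, and 3350 of all 10989 genes. The median log2 fold change was −0.31, beside 0.02 over all tested genes, and 61 of the 78 fold changes were negative. A log2 fold change below −1 was reached by 1 of the called genes, Mrps11, where 2.59% of all genes passed that threshold. Summed levels were 5035, 4819 and 5087 FPKM in KD morulae, each below the lowest control morula. The count of lower genes rested on single libraries. It was 36 without control replicate 1, 8 without control replicate 2, 4 without control replicate 7, 5 without control replicate 8 and 3 without KD replicate 1 or KD replicate 2. Mrps11, Mrpl47 and Mrps31 were called in all 7 fits that left out a library. On FPKM without scaling, which moved the median of all genes by −0.10, the count was 38, where 14.1% of all genes were lower. With no filter on low values it was 4. With a batch term for the range of replicate numbers (1 and 2 against 6 to 8), 24 were lower and 1 was higher.

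In blastocysts 37 of the 78 genes were lower in KD, where 19.8% of all 11828 tested genes were, and 5 were higher, where 16.7% of all genes were. The median log2 fold change was −0.48, beside 0.00 over all genes, with a range from −2.06 (Mrps36) to 1.09 (Mrps26). Past a log2 fold change of 1 in either direction, 7 called genes were lower, where 7.76% of all genes were, and 1 was higher, where 6.1% of all genes were, shares close to or below those of all genes. Most decreases were thus moderate in size. Of the 37 lower genes, 24 were called in all 8 fits that left out a library, and the count in those fits lay between 26 and 36. The KD blastocysts summed to 6116, 6025, 5154 and 5857 FPKM, all below the lowest control sum of 7127 FPKM. With no filter on low values, 23 of the 37 were called.

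**Figure D2:**
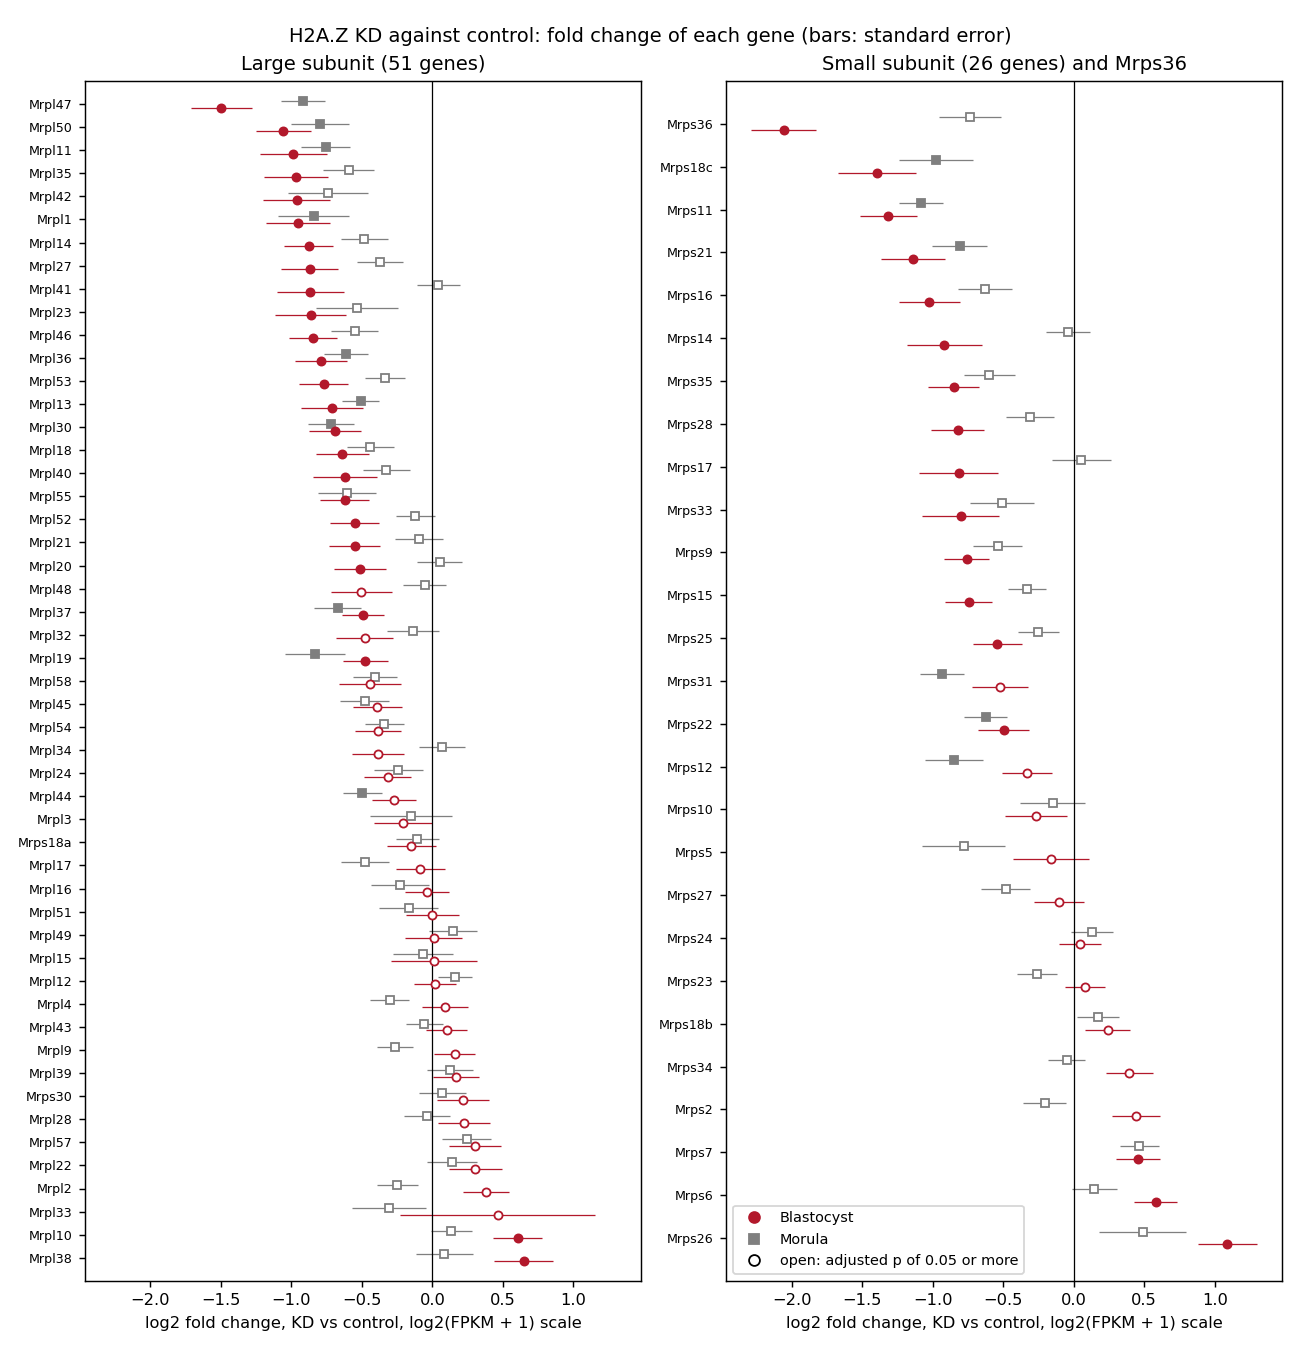
Log2 fold change of each gene in KD against control on the log2(FPKM + 1) scale, with its standard error, for blastocysts (red circles) and morulae (grey squares). Genes are ordered by their value in blastocysts, and filled symbols have an adjusted p under 0.05.

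Trophectoderm markers moved with the same comparison. All 7 genes of that list had a mean of at least 1 FPKM in both blastocyst groups and none was listed at 0. Their summed level was 2454, 2609, 2093 and 1783 FPKM in control blastocysts and 772, 992, 904 and 749 FPKM in KD blastocysts. The most abundant was Dppa1 in controls (mean 1042 FPKM) and Krt18 in KD (mean 390 FPKM). Inner cell mass markers summed to 209, 230, 296 and 181 FPKM in control blastocysts and to 149, 166, 293 and 208 FPKM in KD blastocysts. These sums overlapped, but Nanog made up most of both. Its mean was 132 FPKM of a mean sum of 229 in controls and 161 FPKM of 204 in KD. Nanog thus rose in mean while the sum fell, and the overlap does not describe the other genes of the list. In morulae the inner cell mass sum was 195, 200, 236 and 253 FPKM in controls and 91.8, 92.3 and 154 FPKM in KD. Markers of the 2-cell program went the other way in blastocysts, at 1.34, 2.54, 0.540 and 1.88 FPKM summed over 5 genes in controls and 8.10, 17.5, 3.43 and 25.3 FPKM in KD. Every KD blastocyst was above every control blastocyst. The KD values (mean 13.6 FPKM) overlapped those of control morulae, which lay between 5.14 and 15.7 FPKM (mean 10.6 FPKM). Tcstv3 was the most abundant of the 5 in both groups (mean 0.977 FPKM in controls, 9.26 FPKM in KD), and none was listed at 0. Sums over the oocyte markers and over the primitive endoderm markers overlapped between control and KD blastocysts. The part of these differences in the levels of the ribosomal protein genes was not tested.

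Both subunits contributed to the decrease in blastocysts. For all these counts, 19.8% of all tested genes were lower in blastocysts and 16.7% higher. Of the 51 large-subunit genes, 23 were lower and 2 higher, with a median log2 fold change of −0.44. Of the 26 small-subunit genes, 13 were lower and 3 higher, with a median of −0.51. Among genes with a bacterial counterpart, 24 of 47 were lower and 3 higher, and among mitochondria-specific genes 12 of 30 were lower and 2 higher. In morulae the lower genes comprised 10 of the 51 and 6 of the 26, where 9.05% of all genes were lower.

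The largest decrease among the large-subunit genes in blastocysts was that of Mrpl47. Its protein sits at the rim of the tunnel through which the new peptide leaves. The gene stood at 62.8, 52.0, 43.8 and 53.7 FPKM in control blastocysts and at 19.4, 20.9, 13.6 and 18.6 FPKM in KD blastocysts. In morulae it stood at 27.1, 30.8, 32.0 and 30.0 FPKM in controls and at 13.8, 13.8 and 14.6 FPKM in KD. Neither stage showed any overlap of the groups. The log2 fold changes were −1.50 (SE 0.22, adjusted p 0.000306) in blastocysts and −0.92 (SE 0.16, adjusted p 0.00685) in morulae. Mrpl50, a mitochondria-specific protein, stood at 52.9, 45.8, 46.3 and 39.3 FPKM in control and 21.6, 24.8, 17.8 and 22.0 FPKM in KD blastocysts. Its groups were apart as well, with a log2 fold change of −1.06 (SE 0.19, adjusted p 0.00133). Mrpl45, which tethers the ribosome to the inner membrane, was not called in blastocysts (−0.39, adjusted p 0.0979) or in morulae (−0.48, adjusted p 0.0937).

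The large subunit has a mobile stalk on each side. On the side where tRNA leaves, Mrpl1 stood at 54.1, 44.9, 37.9 and 42.4 FPKM in control blastocysts and at 26.2, 25.4, 16.3 and 23.0 FPKM in KD blastocysts, with every KD library lower. Its log2 fold change was −0.95 (SE 0.23, adjusted p 0.00623). The other stalk, which recruits translation factors, is built from Mrpl10 and copies of Mrpl12 on a base that includes Mrpl11, and its genes moved in different directions. Mrpl11 stood at 45.1, 47.4, 38.1 and 44.5 FPKM in control blastocysts and at 17.2, 26.1, 15.1 and 30.9 FPKM in KD blastocysts. Mrpl12 stood at 141, 175, 162 and 160 FPKM in controls and at 163, 171, 151 and 158 FPKM in KD. Mrpl10 stood at 30.1, 48.6, 56.5 and 51.0 FPKM in controls and at 58.2, 59.5, 83.7 and 78.5 FPKM in KD. Mrpl11 was thus lower in every KD library, Mrpl12 overlapped fully, and Mrpl10 was higher in every KD library. Their log2 fold changes were −0.99 (SE 0.24, adjusted p 0.00674), 0.02 (SE 0.15, adjusted p 0.930) and 0.60 (SE 0.18, adjusted p 0.0179), and the call of Mrpl10 was lost without KD replicate 6 (adjusted p 0.0572). In morulae Mrpl11 was lower (−0.76, adjusted p 0.0201), a call lost without control replicate 7 or KD replicate 1 or 2, while Mrpl12 (0.16, adjusted p 0.401) and Mrpl10 (0.13, adjusted p 0.560) were not called.

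Other large-subunit genes covered the range between these. Mrpl18 was lower in blastocysts (404, 359, 304 and 337 FPKM in controls, 226, 252, 193 and 223 FPKM in KD), without overlap. Its log2 fold change was −0.64 (SE 0.19, adjusted p 0.0197). Mrpl36 was lower in blastocysts (190, 236, 165 and 213 FPKM in KD) by a log2 fold change of −0.79 (SE 0.19, adjusted p 0.00612). Mrpl44, a relative of ribonuclease III, was called lower in morulae (−0.50, adjusted p 0.0435) and only in the fit without control replicate 1 among the 7 that left out a library. It was not called in blastocysts (−0.27, adjusted p 0.188). Mrpl3, near the peptidyl transferase centre, ranged from 16.8 to 44.3 FPKM among control morulae and was not called in morulae (−0.15, adjusted p 0.754) or blastocysts (−0.21, adjusted p 0.464). Mrpl22 (0.31) and Mrpl15 (0.01) were not called in blastocysts.

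In the small subunit, Mrps11, a protein of the platform that holds the mRNA, fell at both stages. In morulae it stood at 31.1, 29.9, 27.9 and 31.4 FPKM in controls and at 14.5, 13.6 and 9.98 FPKM in KD. In blastocysts it stood at 35.5, 50.7, 43.6 and 50.1 FPKM in controls and at 12.3, 23.9, 16.2 and 18.3 FPKM in KD. All KD libraries were below all controls of their stage. The log2 fold changes were −1.08 (SE 0.16, adjusted p 0.00372) and −1.32 (SE 0.20, adjusted p 0.000461). Mrps21, the counterpart of bacterial S21, stood at 134, 123, 110 and 129 FPKM in control blastocysts and at 51.5, 80.3, 40.7 and 55.3 FPKM in KD blastocysts. These did not overlap either, and the log2 fold change was −1.14 (SE 0.23, adjusted p 0.00242). Mrps31, with its late onset, stood at 30.6, 34.2 and 35.8 FPKM in KD morulae, all below the 66.7 to 77.6 FPKM of the controls (−0.93, SE 0.16, adjusted p 0.00645), and was not called in blastocysts (−0.52, adjusted p 0.0594, called without KD replicate 1).

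Among the 3 mammalian relatives of bacterial S18, Mrps18c was called in blastocysts, and Mrps18b and Mrps18a were not. The 3 proteins descend from a common ancestor, with Mrps18b and Mrps18c in the small and Mrps18a in the large subunit. Mrps18c stood at 307, 241, 208 and 264 FPKM in control blastocysts and at 102, 145, 62.5 and 86.7 FPKM in KD blastocysts. Mrps18b stood at 360, 377, 424 and 385 FPKM in controls and at 510, 443, 410 and 461 FPKM in KD. Mrps18a stood at 94.2, 124, 123 and 124 FPKM in controls and at 118, 108, 85.2 and 106 FPKM in KD. Mrps18c was lower in every KD library, while the groups of Mrps18b and of Mrps18a overlapped. The log2 fold changes were −1.40 (SE 0.28, adjusted p 0.00218), 0.24 (SE 0.16, adjusted p 0.258) and −0.15 (SE 0.17, adjusted p 0.535). A test of the differences between the 3 genes was not run. Of the 50-base stretches in the transcripts of Mrps18c and Mrps18b, 19.2% and 14.6% occurred also in other genes.

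Mrps18c was called in morulae as well (101, 151, 191 and 185 FPKM in controls, 61.1, 72.3 and 79.6 FPKM in KD), with a log2 fold change of −0.98 (SE 0.26, adjusted p 0.0351). Mrps12, of the decoding centre, stood at 58.3, 79.5, 74.4 and 76.5 FPKM in control and at 41.3, 28.0 and 40.8 FPKM in KD morulae, a log2 fold change of −0.85 (SE 0.21, adjusted p 0.0243). Mrpl1 stood at 19.5, 25.6, 30.2 and 30.8 FPKM in control and at 11.4, 10.8 and 17.5 FPKM in KD morulae, a log2 fold change of −0.84 (SE 0.25, adjusted p 0.0499). The KD libraries were below the controls for all 3 genes. Each of the 3 calls in morulae was lost without control replicate 2, 7 or 8 or KD replicate 1 or 2. In blastocysts Mrps12 was not called (−0.33, adjusted p 0.163).

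Of the 26 small-subunit genes, 10 were not called in blastocysts. Mrps2 (0.44, adjusted p 0.0641, called without control replicate 5), Mrps5 (−0.16, adjusted p 0.675), Mrps10 (−0.27, adjusted p 0.370) and, of the large subunit, Mrps30 (0.22, adjusted p 0.389) were not called. Mrps35 (−0.85, adjusted p 0.00335), Mrps16 (−1.02, adjusted p 0.00351) and Mrps25 (−0.54, adjusted p 0.0287) were lower. The call of Mrps25 was lost without control replicate 1, 4 or 6 or KD replicate 1 or 5.

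The 5 genes that were higher in KD blastocysts were Mrps26, Mrpl38, Mrpl10, Mrps6 and Mrps7. Mrps26, a mitochondria-specific protein, stood at 4.46, 6.94, 7.07 and 5.95 FPKM in controls and at 14.4, 8.54, 16.1 and 18.5 FPKM in KD. Mrps6 stood at 46.7, 57.6, 72.4 and 66.9 FPKM in controls and at 92.6, 78.3, 107 and 84.6 FPKM in KD. Mrps7, of the small-subunit head, stood at 49.6, 71.3, 68.1 and 60.2 FPKM in controls and at 92.6, 77.1, 80.9 and 88.5 FPKM in KD. For these 3 genes every KD library exceeded every control. The log2 fold changes were 1.09 (SE 0.21, adjusted p 0.00190), 0.58 (SE 0.15, adjusted p 0.0106) and 0.46 (SE 0.16, adjusted p 0.0366). Mrpl38, at 6.33, 12.5, 15.4 and 11.4 FPKM in controls and 18.8, 14.2, 19.5 and 18.1 FPKM in KD, overlapped between the groups and had a log2 fold change of 0.65 (SE 0.21, adjusted p 0.0275). Mrps26 and Mrps6 were called in all 8 fits that left out a library, and Mrps6 shared 17.3% of its 50-base stretches with Gm49711. The count of higher genes was 3 without control replicate 1, control replicate 6 or KD replicate 1 and 2 without KD replicate 6. Mrpl38 was not called in those 4 fits, and Mrps7 was called only in the fit without KD replicate 5. In morulae Mrps7 was at 76.6, 87.3, 73.7 and 71.4 FPKM in controls and at 100, 95.7 and 97.8 FPKM in KD, with an adjusted p of 0.0504.

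**Figure D3:**
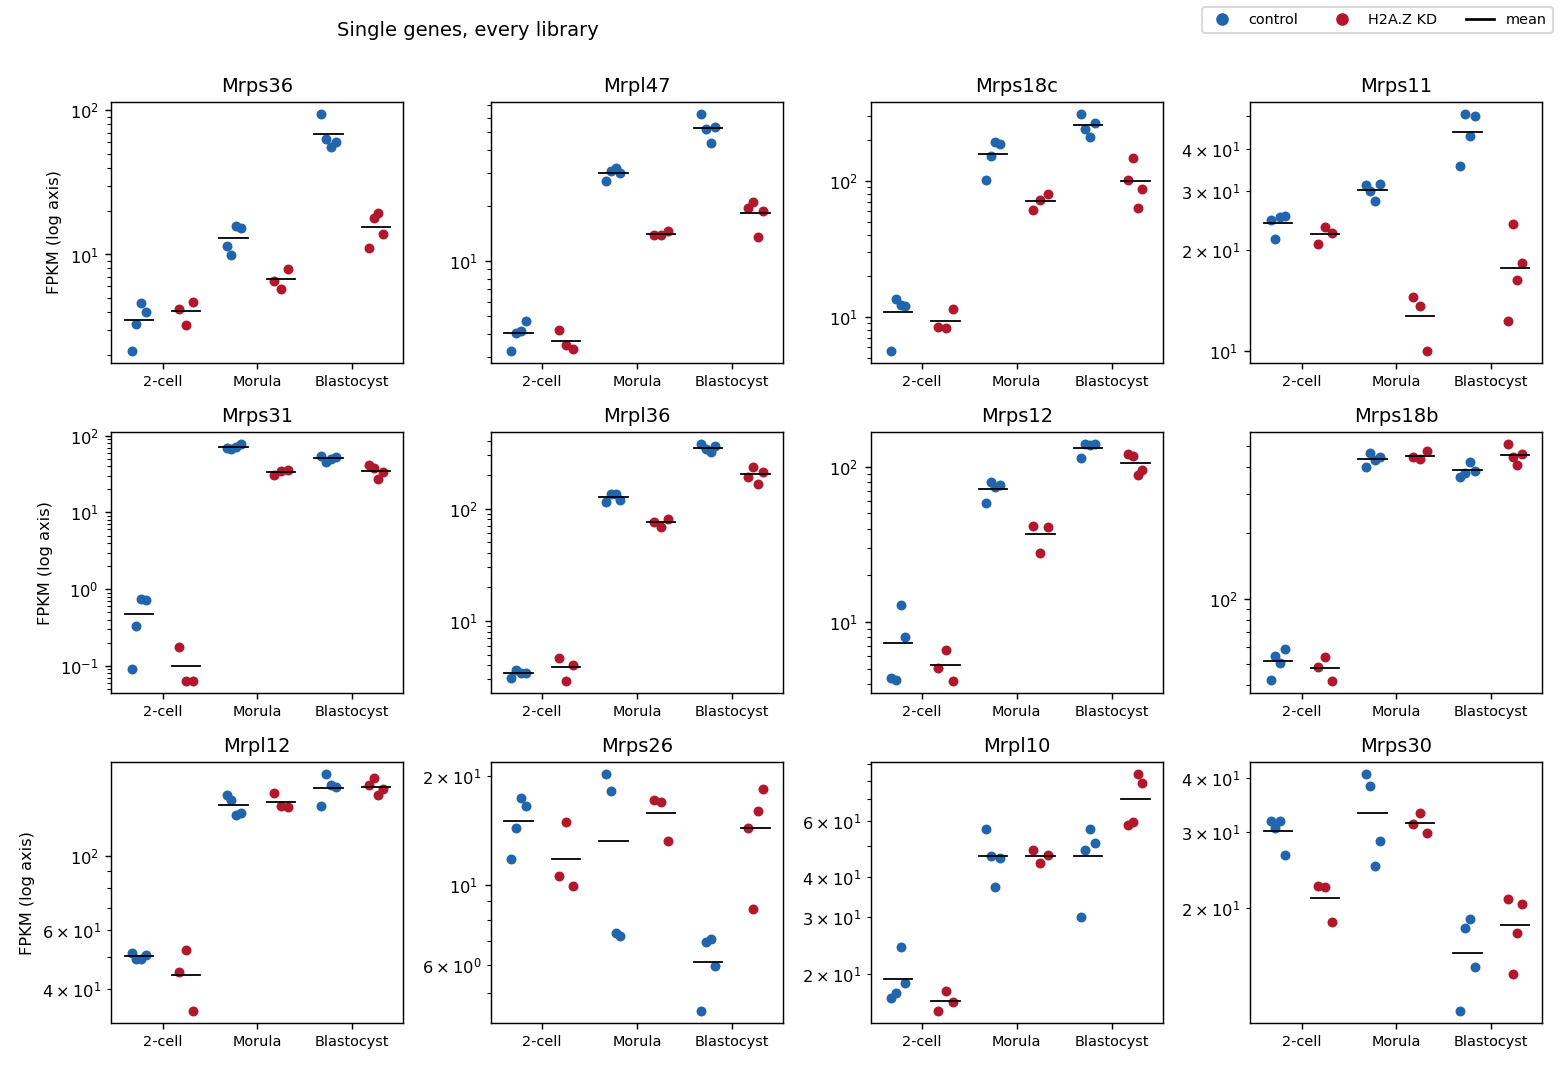
FPKM of 12 genes in every library on a log axis, blue for control and red for KD, with the mean of each group as a line. Mrps36, Mrpl47, Mrps18c and Mrps11 separate control from KD blastocysts downward, Mrps26 and Mrpl10 upward, and Mrpl12 overlaps.

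The largest decrease of the 78 belonged to the gene whose product is not a ribosomal protein. Mrps36 (ENSMUSG00000061474, GRCm38 chr13:100735955-100744659, minus strand) stood at 94.1, 63.3, 56.1 and 60.1 FPKM in control blastocysts and at 11.1, 18.0, 19.4 and 13.9 FPKM in KD blastocysts. In morulae it stood at 11.5, 9.85, 15.8 and 15.3 FPKM in controls and at 6.55, 5.78 and 7.97 FPKM in KD. The groups were apart at both stages, and the values of KD blastocysts overlapped those of control morulae. The log2 fold changes were −2.06 (SE 0.23, adjusted p 5.96e-05) in blastocysts and −0.74 (SE 0.22, adjusted p 0.0500) in morulae, just outside the threshold. The latter passed it without control replicate 1, control replicate 2 or KD replicate 6. In 2-cell embryos Mrps36 was at 2.14, 3.31, 4.59 and 4.02 FPKM in controls and at 4.19, 3.23 and 4.64 FPKM in KD, which overlapped.

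The difference between the KD effects at both stages was tested directly, in a fit over morulae and blastocysts together. The estimate was more negative in blastocysts for 47 of the 78, and for 6454 of all 12727 tested genes. Mrps36 was the 1 gene of the 78 called so in limma (−1.35, SE 0.34, adjusted p 0.0151), where 6.3% of all genes were called. None of the 78 was called with a more positive effect there, where 5.43% of all genes were. An unadjusted p under 0.05 in either direction was reached by 13 of the 78, a smaller share than the 3478 of all 12727 genes. The larger count of lower genes in blastocysts than in morulae was thus not matched by tested differences for the other 77 genes. The count of lower genes in this test was 3, with 1 higher, without blastocyst control replicate 5, and 2 without blastocyst KD replicate 1 or 4. Mrps36 was called in all 15 fits that left out a library and missed the threshold with no filter on low values. Its estimate lay between −1.47 and −1.14 over these alternatives.

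Mrps36 shares sequence with processed copies. Of the stretches of 50 bases in its annotated transcripts, 17.3% occurred also in transcripts of other genes, and 11.5% in those of Mrps36-ps1, a pseudogene left out of the list. That copy, looked up after the values of Mrps36 were seen, was listed at 21.8, 10.5, 12.7 and 15.2 FPKM in control and at 1.71, 2.28, 3.95 and 2.32 FPKM in KD blastocysts. It fell without overlap, by a log2 fold change of −2.16 (adjusted p 8.20e-05), and reads that fit both genes cannot be told apart in FPKM. Of the 78 genes, 33 shared no such stretch with another gene and 12 shared over 10%. The highest shares were 82.0% for Mrpl53 (with Gm42688) and 34.2% for Mrps34 (with Nme3), both named for that share.

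Genes that act with the mitochondrial ribosome were read from lists of their functions. Of 26 genes for ribosome assembly and rRNA modification, 10 were lower and 2 higher in KD blastocysts (median log2 fold change −0.26), where 19.8% of all genes were lower and 16.7% higher, and 9 were lower and 0 higher in KD morulae (median −0.50), where 16 of the 26 and 3350 of all 10989 genes had an unadjusted p under 0.05. The rRNA methyltransferase gene Mettl15 stood at 11.2, 8.62, 7.26 and 7.74 FPKM in control and at 2.21, 2.30, 1.87 and 2.57 FPKM in KD blastocysts. It fell without overlap (−1.57, SE 0.20, adjusted p 0.000151), followed by Fastkd2 (−1.13), Nsun4 (−1.02) and Gtpbp10 (−0.94). In the test of the difference between the stages, 5 of the 26 were called with a more positive effect in blastocysts (5.43% of all genes) and 1 with a more negative effect (6.3% of all genes).

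A further list held 14 translation factors and proteins that act on translation or on new peptides. Of these, 7 were lower and 1 higher in KD blastocysts (median −0.43), beside the same shares of all genes. In KD morulae 5 of 13 tested were lower, where 9.05% of all genes were, and 0 higher (median −0.45), with 8 of the 13 at an unadjusted p under 0.05. The release factor gene Mtrf1 stood at 10.6, 12.6, 8.41 and 7.60 FPKM in control and at 0.688, 1.19, 0.334 and 0.805 FPKM in KD blastocysts. It had lain between 0.493 and 1.06 FPKM in control morulae, so its KD blastocysts were near the morula level and its groups were apart (−2.61, SE 0.22, adjusted p 1.01e-05). The factor genes Guf1 (−1.06) and Mrrf (−0.90) were lower too, as was Oxa1l (−0.71), whose product inserts new peptides into the inner membrane.

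The remaining helper lists are given beside the shares of all genes in blastocysts, 19.8% lower and 16.7% higher. Of 15 tested mitochondrial aminoacyl-tRNA synthetase genes, 3 were lower and 1 higher (median −0.04), with Fars2 at −0.98, Hars2 at −0.62, Rars2 at −0.57 and Wars2 at 0.81. The call of Rars2 was lost without any of the 4 control replicates or without KD replicate 5 or 6. In KD morulae 4 of the 15 synthetase genes were lower and 0 higher (median −0.42), where 9.05% of all genes were lower, with 6 of the 15 and 3350 of all 10989 genes at an unadjusted p under 0.05. Of 11 genes for mitochondrial transcription and RNA maturation, 3 were lower and 2 higher in blastocysts (median 0.08), and 1 was lower and 1 higher in morulae (median −0.09). Hsd17b10, a subunit of mitochondrial RNase P, stood at 72.5, 69.8, 45.7 and 45.0 FPKM in control and at 25.3, 16.1, 12.1 and 18.3 FPKM in KD blastocysts (−1.65, adjusted p 0.000762). Tfb2m, a factor of mitochondrial transcription initiation, went the other way, from 11.0, 15.2, 16.2 and 15.3 FPKM to 29.7, 25.3, 29.4 and 27.7 FPKM (0.93, adjusted p 0.000651). Both separated KD from control. Pnpt1 (−0.95) and Slirp (−0.71) were lower, the latter with a call lost without control replicate 1, 4 or 6 or KD replicate 1, 5 or 6.

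Ribosomal proteins with other symbols numbered 5 tested genes, of which Chchd1 was lower (−1.02, adjusted p 0.00415) and 0 were higher, with 2 of the 5 at an unadjusted p under 0.05, no larger a share than the 5440 of all 11828 genes. Among 7 tested regulators of nuclear genes for mitochondria, Mycn was lower (−0.89, adjusted p 0.0358) and Pprc1 higher (0.79, adjusted p 0.0142). The call of Mycn was lost without control replicate 1, 4 or 5 or KD replicate 1, 4 or 6.

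Cytoplasmic ribosomal protein genes were read in the same libraries. Of 87 tested, 2 were lower in KD blastocysts (Rpl22l1 and, at −0.53, Rps4l), where 19.8% of all genes were. Another 4 were higher, Rps2 at 0.69 and Rpl8 at 0.64 among them, where 16.7% of all genes were. The median log2 fold change of the 87 was 0.11. In KD morulae their median was 0.26, with 1 lower (9.05% of all genes) and 1 higher (4.22% of all genes). Both medians were also positive without scaling. Of the 36 nuclear genes for complex I, the largest user of mitochondrially translated subunits, 22 were lower and 0 higher in KD blastocysts (median −0.70), with 27 of the 36 at an unadjusted p under 0.05, beside 5440 of all 11828 genes. In KD morulae 4 of the 36 were lower, a share near the 9.05% of all genes, and 0 higher (median −0.14), with 6 at an unadjusted p under 0.05. Without scaling, 8 of the 36 (22.2%) were lower in KD morulae, where 14.1% of all genes were. Ndufs4 had the largest decrease, from 133, 81.9, 82.2 and 98.1 FPKM to 15.7, 21.3, 16.5 and 19.9 FPKM, without overlap (−2.34, adjusted p 1.93e-05), followed by Ndufb3 (−1.33) and Ndufb4 (−1.22). No test compared these lists with the mitochondrial ribosomal protein genes.

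The templates of the mitochondrial ribosome are the 13 protein-coding genes of the mitochondrial genome. In KD blastocysts 4 of them were lower, where 19.8% of all genes were, and 2 higher, where 16.7% of all genes were (median −0.23). The share of higher genes was thus near that of all genes. In KD morulae 6 were higher, where 4.22% of all genes were, and 0 lower, where 9.05% of all genes were (median 0.49). At an unadjusted p under 0.05 there were 12 of the 13 and 3350 of all 10989 genes in morulae. Over all 37 genes of the mitochondrial genome, 4 were lower and 18 higher in KD blastocysts, and 0 lower and 17 higher in KD morulae. These counts stand beside the same shares of all genes. Without scaling, the higher genes in KD morulae numbered 2 of the 13 and 11 of the 37, and the median of the 13 was 0.36. Neither mitochondrial rRNA gene was called at either stage, with 2 of 2 at an unadjusted p under 0.05 in morulae and 0 of 2 in blastocysts. The libraries capture poly(A) tails, so levels of rRNA and tRNA genes depend on their tails.

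On GRCm38 the 78 genes were spread over 17 chromosomes, with at most 11 on 1 chromosome. Of the 78, 33 (42.3%) started within 1000 bases of the start of a protein-coding gene on the opposite strand, a head-to-head arrangement found for 10.8% of all 22028 protein-coding genes. Mrps11 and Mrpl46 formed such a pair with each other, on chromosome 7, with 413 bases of overlap between their spans. Mrpl46, named here as its partner, stood at 116, 117, 107 and 117 FPKM in control and at 57.2, 73.3, 54.6 and 67.7 FPKM in KD blastocysts (−0.85, adjusted p 0.00258). The libraries do not keep the strand, so reads in that overlap cannot be told apart.

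Partners outside the list were counted beside the genes they adjoin. Of 22 tested partners, 5 were lower (22.7%, near the 19.8% of all genes) and 1 higher in KD blastocysts, with a median log2 fold change of 0.01. Of the 31 genes with such a partner 13 were lower and 2 higher, with a median of −0.39. In KD morulae 2 of the 22 partners (median −0.17) and 9 of the 31 genes (median −0.33) were lower, where 9.05% of all genes were, and 0 were higher in either list. The share of the partners was thus close to that of all genes. At an unadjusted p under 0.05 there were 8 of the 22 partners and 16 of the 31 genes, beside 3350 of all 10989 genes. Without scaling, 3 of the 22 partners and 15 of the 31 genes were lower in KD morulae, where 14.1% of all genes were. The difference between partners and genes was not tested. Pairs were picked after their values were seen. Mrps18c, lower as given above, starts 29 bases from Helq, which stood at 1.62, 5.90, 2.54 and 2.99 FPKM in control and at 3.91, 4.73, 5.90 and 4.82 FPKM in KD blastocysts (0.54, adjusted p 0.101). These groups of Helq overlapped. Mrpl47 starts 615 bases from Ndufb5, a complex I gene that was lower too, from 140, 86.2, 75.2 and 93.1 FPKM to 50.6, 59.4, 40.8 and 46.0 FPKM (−0.95, adjusted p 0.00979). Mrpl36 starts 29 bases from Ndufs6, also of complex I, which went from 349, 297, 261 and 304 FPKM to 166, 226, 154 and 185 FPKM (−0.73, adjusted p 0.0135). Both complex I partners were below the controls in every KD library. The spans overlap by 616 bases for Mrpl47 and Ndufb5 and by 30 bases for Mrpl36 and Ndufs6, and Mrpl47 overlaps Actl6a by 1577 bases at its other end. Reads in these overlaps cannot be told apart either.

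Promoters were read from RefSeq (GRCm38.p6), in windows from 250 bases before to 50 bases after each start, which were found for 69 of the 78 genes. Without an entry were Mrpl4, Mrpl13, Mrpl15, Mrpl19, Mrpl38, Mrpl54, Mrps28, Mrps34 and Mrps35. Sequence motifs were searched on both strands, and a match is a description of the letters only. CCGGAAG, the core bound by ETS factors, occurred in 26 of the 69 (37.7%), beside 9.93% of all 27025 gene symbols with a window. Those symbols outnumber the 22028 protein-coding genes of the gene annotation and were not limited to expressed genes, while the 78 genes were all expressed. The shares are thus not those of a like set of genes. GCGCANGCG, bound by NRF1, occurred in 16 (23.2%, beside 7.03%), and AANATGGCG, bound by YY1, in 11 (15.9%, beside 2.76%). GGGCGG, bound by SP1, occurred in 34 (49.3%, beside 38.2%). CCAAT, bound by NF-Y, was found in 27 (39.1%, beside 41.1%) and the E-box CACGTG in 5 (7.25%, beside 8.09%). Genes with several windows (75 windows for the 69 genes) were counted once, with a match in any of them. Of the 69 genes, 4 held none of the 6 motifs (5.80%, beside 31.2%).

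Motif content was also counted by the direction of change in blastocysts. Of the 33 lower genes with a window, 10 held CCGGAAG, 4 GCGCANGCG, 6 AANATGGCG, 19 GGGCGG, 15 CCAAT and 4 CACGTG. Of the 32 genes that were not called, 15 held CCGGAAG, 10 GCGCANGCG, 5 AANATGGCG, 12 GGGCGG, 11 CCAAT and 1 CACGTG. Of the 4 higher genes with a window, 1 held CCGGAAG, 2 GCGCANGCG, 3 GGGCGG and 1 CCAAT, and 0 held AANATGGCG or CACGTG. No test was made of these counts.

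The windows of 2 genes that fell and 2 that rose are shown without the bases that the annotation assigns to exons, as a view of how unlike these promoters are in sequence. They do not stand for all called genes. Cut in the same way, the window of Mrps26, also higher in blastocysts, held none of the motifs. That of Mrpl1, lower at both stages, held GGGCGG but no CCAAT. Mrps36, the gene with the largest decrease in blastocysts, is given at chr13:100744660-100744909 on the minus strand. Mrps12, lower in morulae, is given at chr7:28741822-28741991 on the minus strand, a stretch that it shares with the head-to-head gene Sars2. Mrpl10 (chr11:97041408-97041559, plus strand) and Mrps6 (chr16:92058086-92058269, plus strand) were higher in blastocysts. The stretch of Mrpl10 lies between it and the head-to-head gene Lrrc46, whose start is 153 bases away. Gm49711 and Slc5a3 start 46 and 52 bases from the start of Mrps6 on the same strand. These stretches are thus not particular to Mrpl10 or Mrps6. Capitals mark the motifs in either orientation: GGGCGG and CCAAT in Mrps36 and Mrps12, GCGCANGCG in Mrpl10 and GGGCGG in Mrps6.
Mrps36: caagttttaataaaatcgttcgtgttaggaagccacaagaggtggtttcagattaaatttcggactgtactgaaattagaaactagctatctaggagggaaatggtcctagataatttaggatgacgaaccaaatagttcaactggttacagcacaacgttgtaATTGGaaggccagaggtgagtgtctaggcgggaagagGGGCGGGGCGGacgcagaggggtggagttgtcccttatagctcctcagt
Mrps12: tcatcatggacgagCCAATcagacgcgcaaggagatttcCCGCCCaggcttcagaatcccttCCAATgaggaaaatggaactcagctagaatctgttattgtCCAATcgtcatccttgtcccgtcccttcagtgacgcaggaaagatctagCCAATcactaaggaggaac
Mrpl10: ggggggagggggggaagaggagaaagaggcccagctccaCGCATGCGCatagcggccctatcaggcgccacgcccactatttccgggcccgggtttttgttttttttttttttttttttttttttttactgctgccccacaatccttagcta
Mrps6: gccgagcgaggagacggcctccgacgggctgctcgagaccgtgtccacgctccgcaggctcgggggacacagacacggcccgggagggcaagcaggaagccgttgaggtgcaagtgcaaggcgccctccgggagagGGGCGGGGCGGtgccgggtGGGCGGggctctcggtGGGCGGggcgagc

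Mrps12 held CCAAT 4 times in 170 bases, Mrps36 held it once beside 2 matches of GGGCGG that overlap by 1 base, and Mrps6 held 4 matches of GGGCGG, 2 of them overlapping, and no CCAAT. Mrpl10 held none of these but a GCGCANGCG match. Sars2, the mitochondrial seryl-tRNA synthetase gene opposite Mrps12, was not called in morulae (−0.47, adjusted p 0.155), with 11.0, 7.39, 5.70 and 4.78 FPKM in controls and 3.96, 4.89 and 4.07 FPKM in KD.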

How the data were processed

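The values are FPKM deposited by the authors, who mapped reads with STAR to GRCm38 (mm10) and computed FPKM with StringTie 2.1.4. No counts are given, so depth and its effect on low values are unknown. Filtering kept genes with at least 1 FPKM in at least 3 libraries of a comparison. FPKM were scaled by a median of ratios within each comparison (factors 0.893 to 1.17 in the KD comparisons, 0.853 to 1.16 in the development fit and 0.874 to 1.16 in the fit of the difference between KD effects), and log2(scaled FPKM + 1) was fitted in limma 3.58.1 (lmFit, eBayes with a trend) under R 4.3.3. P-values were adjusted by Benjamini and Hochberg over all tested genes, and a call is an adjusted p under 0.05. Tables and figures were made with Python 3.11.15, pandas 2.3.3, numpy 2.4.6 and matplotlib 3.10.9. No library was left out and 0 columns were unmapped.

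The labels do not state separate cultures or animals, so p-values measure the spread between these samples. The control libraries of each stage enter both a KD and a development comparison, which therefore share samples.

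Members and lists were chosen with earlier results of these data known, although the members follow from a symbol pattern that uses no expression value. Genes named in the text are members fixed by role (stalks, exit tunnel, membrane anchor, decoding centre, S18 relatives and the members misnamed by subunit), up to 6 lower and 6 higher called members by size of fold change in each KD comparison (the 2 smallest p-values where none was called) and up to 4 in each direction in each development comparison. To these come the 3 highest and 3 lowest members by mean FPKM, up to 4 called genes of each other list by fold change in blastocysts, and H2afz with H2afv. Other genes were named after their values were seen.

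Gene spans and transcripts are from GENCODE vM21, promoters from RefSeq GRCm38.p6. Shared sequence is the share of 50-base stretches of a gene's transcripts found in transcripts of another gene.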

Additional observations from a re-analysis of the deposited data

Results flagged for a closer look

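A value was taken as far from its group when its gap to the nearest other value, as a share of the range of the group, exceeded the 5% limit of Dixon's test for 4 values. Of 136 groups tested, 4 had such a value, and about 1 in 20 would by chance. Mrpl18 was at 53.1 FPKM in 2-cell control replicate 1, below the 60.4 to 61.8 FPKM of the others (share 0.843). Mrps12 was at 114 FPKM in blastocyst control replicate 1, below 138 to 140 FPKM (share 0.943). Mrps18a was at 145 FPKM in morula control replicate 2, above 111 to 116 FPKM (share 0.851), and at 94.2 FPKM in blastocyst control replicate 1, below 123 to 124 FPKM (share 0.951). The KD effect on Mrps36 differed between blastocysts and morulae by −1.35 on the log2 scale, the 1 gene of the 78 where that difference was called.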

How the results depend on the processing

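Each count was repeated with other settings and without each library. In KD morulae the 16 lower genes became 4 with no filter on low values, 38 on FPKM without scaling and 3 to 36 when a library was left out. A batch term for the range of replicate numbers gave 24 lower genes in morulae in place of 16, and 1 higher gene in place of 0. In KD blastocysts the 37 lower genes became 23 and the 5 higher genes 3 with no filter, and the higher genes 2 to 6 when a library was left out. Lower genes in control morulae against 2-cell embryos became 0 to 1. Lower genes in control blastocysts against morulae became 4 with no filter and 4 to 7 without a library. For the difference between the KD effects, the 1 lower gene became 0 with no filter, 2 with a filter of 5 FPKM, 2 without scaling and 1 to 3 without a library. The higher genes became 2 without scaling and 0 to 1 without a library. The cause was not tested.

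Median log2 fold changes kept their sign in the KD comparisons without a library: −0.12 to −0.02 in 2-cell embryos, −0.40 to −0.28 in morulae and −0.53 to −0.34 in blastocysts. For the difference between KD effects the median was −0.12 scaled and 0.04 unscaled, so its direction flips, while scaling moved the median of all genes by 0.119. Scaling moved it by 0.110 in control morulae against 2-cell embryos.

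Whether replicate numbers pair the samples is not stated, and the correlations below do not settle it. Correlations between same-number control and KD libraries were 0.208, 0.0147 and 0.214 in 2-cell embryos, 0.181 and 0.0943 in morulae and 0.0859, −0.110, 0.353 and 0.00151 in blastocysts, beside up to 0.401 for different numbers. In morulae the signs followed the ranges of numbers. Every correlation within replicates 1 and 2 or within 6 to 8 was positive (0.0943 to 0.346). Every correlation across these ranges was negative (−0.278 to −0.0944). The group mean of each gene was removed before correlating, so the positive signs force negative ones and are not independent of them. In 2-cell embryos KD replicates 1 and 4 also correlated positively with controls of their own range (1 and 2, or 4 and 5) and negatively with the others. KD replicate 2 did not follow this. With a replicate block, 0 genes were called in 2-cell embryos (median −0.02), 11 lower and 0 higher in morulae (median −0.32) and 40 lower and 4 higher in blastocysts (median −0.48).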
